A study of Mus musculus with 5 samples.

Results

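The transcripts described here are those that the gene annotation of the deposited count table classes as TEC, loci that still await experimental evidence. Members were selected on their level: the rule took every TEC row whose raw read counts, summed over the 5 libraries, reached at least 100, which left 250 of 3241 TEC rows and of 55573 rows in the table. Another 1498 TEC rows had no read, 664 had 1 to 9 summed counts and 829 had 10 to 99. RNA-seq had been done on Neuro-2A (N2A) cells, a commercially obtained mouse neuroblastoma line, after transient transfection with 60 pmol of siRNA. The 2 siCtl libraries (replicates 1 and 3) came from cells given Silencer Negative Control #1, and the 3 siUpf1 libraries (replicates 1, 2 and 3) from cells given an siRNA against Upf1, with a single siRNA on each side. Polyadenylated RNA was sequenced with its strand kept. The study describes independently performed experiments for its blots of such transfected cells, but the labels do not say whether the libraries were separate cultures, so p-values measure the spread between these libraries, which may be technical.

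TEC is a holding class. Annotators give it to loci, mostly without introns, where expressed sequence tags or polyadenylation features point to transcription but no full-length or spliced RNA has settled what is made. UPF1 is the RNA helicase at the centre of nonsense-mediated mRNA decay (NMD), the translation-dependent pathway that degrades mRNAs on which ribosomes terminate early. Many unstable non-coding RNAs are removed in the nucleus, and the RNA exosome with its adaptors is one of the machineries that do so.

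The 250 members had positions in GENCODE M21, which describes the files' genome build, GRCm38, but is an earlier release than the one used for counting. In it, 1 member was typed as protein-coding. A total of 246 had 1 exon (98.4%), against 14.6% of the 801 lncRNA genes that reached the same summed count. Their median transcript length was 2408 bases, with a range of 293 to 30942, and their median GC content was 44.5%, against 47.9% for these lncRNAs. Chromosome 5 held 50 members, followed by chromosome 3 with 29 and chromosome 7 with 27. These counts were not set against the number of TEC rows annotated on each chromosome. In M21, 147 members lay on the same strand within a protein-coding or lncRNA gene without touching its exons, and 37 lay at most 10 kb downstream of a gene on the same strand. A further 17 overlapped a same-strand exon, 20 overlapped a gene on the opposite strand and 12 began within 1 kb of the start of a gene on the opposite strand. The last 17 were in none of these positions.

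Because the RNA was captured by poly(A), the last 50 bases of each annotated transcript were searched on the transcribed strand for the polyadenylation signals AATAAA and ATTAAA. Where several matches were present, the one nearest the end was kept, whichever hexamer it was, so it need not be the signal in use. In Gm47205 below, for example, AATAAA also lies upstream of the marked ATTAAA. A signal was found in 90 of the 250 members (36.0%), 65 with AATAAA and 25 with ATTAAA, against 58.7% of the lncRNAs over windows of the same length. A run of 15 or more A, to which an oligo(dT) primer or bead can bind, was present in 24 members (9.6%) and in 7.12% of the lncRNAs. The last 30 bases are shown for the members with a signal among the largest called increases and decreases below, 5′ to 3′ on the transcribed strand, with the signal in capitals.
4930556H04Rik (chr12:99569740-99571414, + strand): aaaatAATAAAtgccaagccttttgttacc
2010008C14Rik (chr6:125083437-125084029, + strand): atgttattaATTAAAgctgacatgtttctg
Gm37928 (chr3:118530883-118535013, + strand): attaaaatgaAATAAAtgtctgacacacgc
Gm38123 (chr12:112347289-112350067, - strand): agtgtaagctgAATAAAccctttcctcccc
Gm47205 (chr9:44481514-44483803, - strand): taaaacaataaaataaatgataaATTAAAc
2610017A05Rik (chr6:148831452-148833112, + strand): gaactcttATTAAAgtaggttgcaaaaaat
Gm43860 (chr5:35551260-35553964, - strand): tgtaaactgaAATAAAcctttttcctcccc
The first 5 of these transcripts were called higher in siUpf1 and the last 2 lower, so a signal near the annotated end was present on both sides. Over all members called higher, 15 of 31 had a signal (48.4%). The median log2 fold change was 0.28 over the 90 members with a signal and 0.33 over the 160 without. It was 0.11 over the 24 members with a long A run and 0.33 over the 226 without. Of the 24, DESeq2 called 1 higher (4.17%) and 2 lower (8.33%). The 226 gave 30 higher (13.3%) and 3 lower (1.33%), and all genes tested 22.0% and 22.9%. The 2 called lower were Gm37716, with a run of 35 A, and Gm49338, with 23. What part the A runs had in these calls was not tested.

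Libraries held 20402205 to 27717594 assigned reads, and members took 0.0489% to 0.0645% of them. In siCtl, Upf1 had 5217 and 5243 normalised read counts (counts divided by the library's size factor), and in siUpf1 it had 2403, 2496 and 2449, or 46.8% of the siCtl mean, so the targeted gene was lower in each siUpf1 library. Of 12 neuroblastoma markers all 12 had reads, with a sum of 1695 to 1994 CPM in a library (counts scaled to a common library total). Microglial markers summed to 0 to 0.207 CPM, astrocyte markers to 0.938 to 2.07 and endothelial markers to 9.17 to 11.1. Fibroblast markers summed to 8.72 to 12.1 and oligodendrocyte markers, 2 of 4 with a read, to 14.7 to 18.9. Nearly all of the oligodendrocyte sum was Mbp, since Sox10 had 1 read over all libraries.

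TEC transcripts were mostly shifted upward in siUpf1. Calls used DESeq2's Wald test over all genes, with a Benjamini-Hochberg adjusted p under 0.05. Of the 250 members, 31 were called higher (12.4%), 5 were called lower (2.0%) and 214 did not pass the test. edgeR's quasi-likelihood test called 61 higher and 8 lower. Leaving out 1 library reduced the DESeq2 calls to 18 higher and 1 lower without siCtl replicate 1, 12 and 1 without siCtl replicate 3, and 15 and 2 without siUpf1 replicate 3, and the calls lower also to 3 and 2 without siUpf1 replicates 1 and 2. The fold change was above 0 for 191 members and below 0 for 59, with a median log2 fold change of 0.30 and quartiles of 0.03 and 0.60. Over all 15191 genes tested, 22.0% were called higher and 22.9% lower, with a median of -0.0024. Most members were weakly expressed: their median over the libraries was 33.0 normalised counts, and 180 had a mean of 20 to 50. At that level, 15 members were called higher (8.33%) and 0 lower by DESeq2, with a median of 0.28. At an unadjusted p under 0.05 DESeq2 also gave 0 lower, and edgeR called 36 higher and 3 lower. Among all 1514 genes with a mean of 20 to 50, 6.54% were called higher and 6.94% lower, with a median of 0.03. The share of members called higher was thus near the background at this level. In bulk RNA, a changed number of cells with a transcript and a changed amount per cell cannot be told apart.

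The median was also above 0 in the better-expressed members. With a mean of 50 to 100 counts, 7 of 43 members were called higher (16.3%) and 2 lower (4.65%), with a median of 0.33. All 935 genes at that level gave 11.8% higher and 12.8% lower, with a median of 0.01, so the share of members called higher was near the background. With a mean of 100 or more, 9 of 22 members were called higher (40.9%) and 3 lower (13.6%), with a median of 0.39, against 28.1% and 29.4% of all 10963 such genes, with a median of -0.01. The corresponding lncRNAs numbered 123 higher (15.4%) and 47 lower (5.87%) of 801, with a median of 0.18. Protein-coding genes numbered 3107 higher (25.9%) and 3361 lower (28.0%) of 12017, with a median of -0.02. Processed pseudogenes, another class of mostly intronless loci, numbered 8 higher (3.7%) and 21 lower (9.72%) of 216, with a median of -0.12. Groups did not overlap for 112 members (44.8%), against 69.4% of all genes tested. Across members, the fold change had a Spearman correlation of 0.03 with transcript length, -0.08 with GC content, 0.04 with mean level and -0.03 with the longest A run (n = 250 loci, which share the same 5 libraries).

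**Figure D1:**
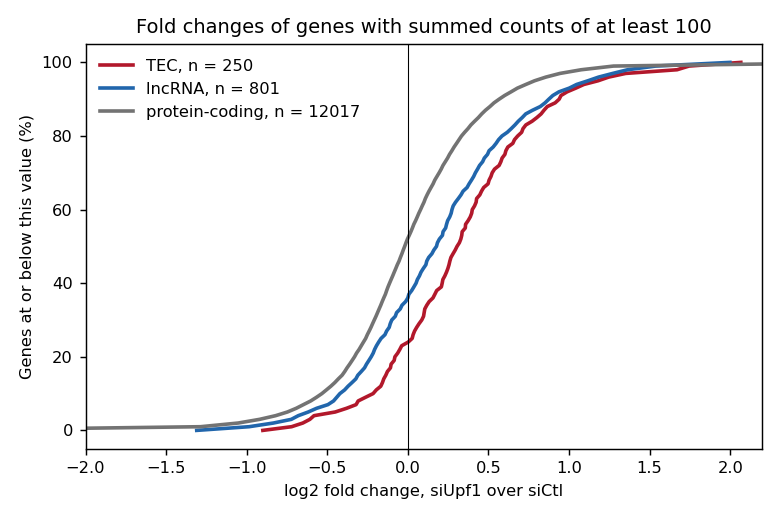
Cumulative share of genes (y axis, %) at or below each log2 fold change of siUpf1 over siCtl (x axis) for TEC transcripts (n = 250), lncRNAs (n = 801) and protein-coding genes (n = 12017) with summed counts of at least 100. The TEC curve lies to the right of the others over most of its range and crosses its median at 0.30, against 0.18 and -0.02.

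The rule itself gave siUpf1 more weight, since 3 of the 5 summed libraries were siUpf1. A mean of 20 or more normalised counts was reached in both groups by 204 members, in siUpf1 alone by 40 and in siCtl alone by 6. Of the 31 members called higher, 11 had a siCtl mean under 20. When TEC rows were instead taken by the mean of both group means, 243 rows were tested, 30 were called higher and 6 lower, with a median of 0.29. Just outside the limit were 2700080J24Rik, with 98 summed counts, and 5430420F09Rik and Gm47817, with 99 each. Just inside it were Gm37968, 5330406M23Rik and Gm45828, with 100 each. No member was at 0 in any library, and the smallest raw count was 5.

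One siUpf1 library stood above the others for these transcripts. Summed over members, siCtl replicates 1 and 3 held 12840 and 12260 normalised counts, and siUpf1 replicates 1, 2 and 3 held 14860, 13820 and 15950. The median member lay 0.25, 0.15 and 0.45 above the siCtl mean (log2) in siUpf1 replicates 1, 2 and 3, and replicate 3 held the highest value of all 5 libraries for 116 members. Without it, the median log2 fold change over members was 0.21. Nuclear-retained lncRNAs also summed to the highest level there, although not each of them was highest in that library. Their 8 genes held 521.2 and 454.6 CPM in siCtl and 416.5, 462.7 and 637.8 CPM in siUpf1. Malat1 made up most of that sum, with 7912 and 6336 normalised counts in siCtl and 6284, 7965 and 11035 in siUpf1. Kcnq1ot1, with 673.0 and 595.3 in siCtl and 956.1, 876.0 and 1353 in siUpf1, was above both siCtl libraries in each siUpf1 library. Meg3 and Airn were also highest in siUpf1 replicate 3, at 230.0 and 85.6. Rian and Pvt1 had their lowest siUpf1 values there, at 158.7 and 862.0. Neat1 went the other way, with 3562 and 3381 in siCtl and 1536, 1632 and 2033 in siUpf1. What part a different share of nuclear RNA had in the TEC levels was not tested.

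**Figure D2:**
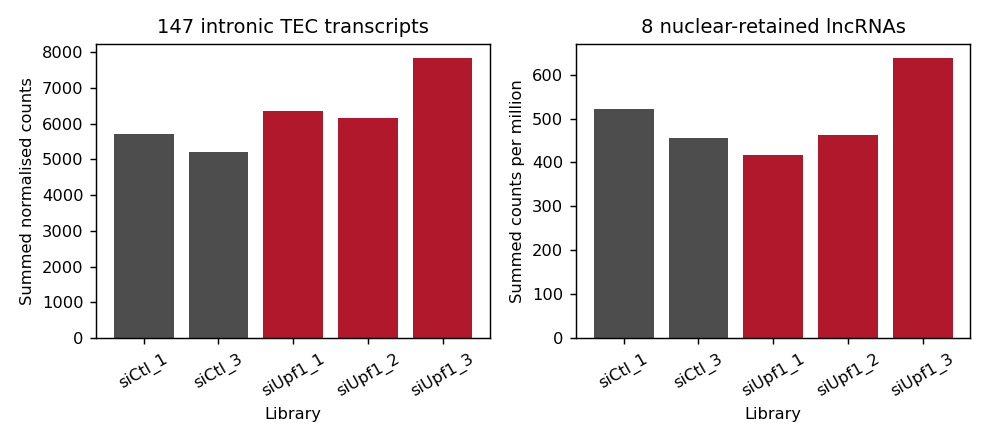
Left, normalised counts summed over the 147 intronic TEC transcripts (y axis) in each library (x axis; grey, siCtl; red, siUpf1); right, CPM summed over 8 nuclear-retained lncRNAs. Intronic TEC counts were 5720 and 5199 in siCtl and 6355, 6166 and 7841 in siUpf1, and siUpf1 replicate 3 was highest in both panels.

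The largest increase was in Gm37773, which lies within an intron of the lncRNA gene Gm26871 (chr3:118526151-118528270, + strand). It had 9.43 and 10.4 normalised counts in siCtl and 47.1, 38.9 and 38.3 in siUpf1, which gave a log2 fold change of 2.07 with an SE of 0.50 (DESeq2 adjusted p = 0.000133). Gm37928, the third largest, begins 861 bases behind the end of the same gene. It was among the 10 most abundant members, with 77.6 and 95.3 counts in siCtl and 372.6, 267.3 and 256.7 in siUpf1, and its log2 fold change was 1.79 (SE 0.21, DESeq2 adjusted p = 8.24e-17). Gm26871 itself had 27.3 and 15.1 counts in siCtl and 48.9, 54.0 and 53.5 in siUpf1, a log2 fold change of 1.31. All 3 loci were higher in every siUpf1 library than in either siCtl library, which the naming rule required of Gm37773 and Gm37928. The calls of these 2 transcripts were kept whichever library was left out.

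Gm43844 lies in an intron of St7 (chr6:17914996-17920600, + strand). It had 11.5 and 6.60 counts in siCtl and 30.2, 40.2 and 27.6 in siUpf1 (log2 fold change 1.85, SE 0.55, DESeq2 adjusted p = 0.00244). Gm38220 lies in an intron of Smchd1, a chromatin protein of X inactivation (chr17:71391838-71393284, - strand), 620 bases behind one exon and 110 bases ahead of the next. It had 17.8 and 17.9 counts in siCtl and 54.3, 50.2 and 54.4 in siUpf1 (log2 fold change 1.57, SE 0.40, DESeq2 adjusted p = 0.00037). Both rose by more than the genes around them, whose log2 fold changes were 0.24 for St7 and 0.28 for Smchd1. The ratio to the host rose by 1.59 log2 for Gm43844 (limma adjusted p = 0.0117) and by 1.26 for Gm38220 (limma adjusted p = 0.00489), in the test of ratios described below.

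Low levels in siCtl marked the remaining large increases. 4930556H04Rik, in an intron of the lncRNA gene Gm26839, had 15.7 and 4.72 counts in siCtl and 32.9, 22.6 and 41.9 in siUpf1 (log2 fold change 1.70, SE 0.57). 2010008C14Rik, 965 bases behind the lysophosphatidic acid receptor gene Lpar5, had 11.5 and 7.55 in siCtl and 28.5, 33.9 and 29.4 in siUpf1 (log2 fold change 1.69, SE 0.55). Gm38123, with no gene in any of the positions above, had 10.5 and 7.55 in siCtl and 32.9, 23.9 and 28.5 in siUpf1 (log2 fold change 1.67, SE 0.56). For these transcripts every siUpf1 library was above both siCtl libraries, as the naming rule required, but the siCtl values rest on few reads. Gm47205, antisense to the Wnt coactivator gene Bcl9l, had 9.43 and 18.9 in siCtl and 36.5, 37.7 and 39.2 in siUpf1 (log2 fold change 1.41, SE 0.48). These 4 calls had DESeq2 adjusted p-values of 0.00834, 0.00577, 0.00855 and 0.00905 in the order given. Without siUpf1 replicate 3, 4930556H04Rik (adjusted p = 0.106) and Gm47205 (adjusted p = 0.0593) no longer passed the test, without siCtl replicate 1 Gm47205 did not (adjusted p = 0.199), and without siUpf1 replicate 1 Gm38123 did not (adjusted p = 0.0665). Without siCtl replicate 3, DESeq2's filter on low counts left 4930556H04Rik, 2010008C14Rik, Gm38123 and Gm43844 without an adjusted p-value.

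Only 5 members were called lower, and in each case the gene they lie in, behind or against was called lower as well. 2610017A05Rik is antisense to Ipo8, which encodes a nuclear import receptor. It had 98.5 and 97.2 counts in siCtl and 56.9, 50.2 and 49.9 in siUpf1 (log2 fold change -0.90, SE 0.28, DESeq2 adjusted p = 0.00327), and Ipo8 fell from 3090 ± 111 (SD, n = 2) to 1975 ± 32.2 (SD, n = 3). Gm43860, 2239 bases behind the tRNA methyltransferase gene Trmt44, had 289.3 and 248.1 in siCtl and 179.7, 193.3 and 136.4 in siUpf1 (log2 fold change -0.67, adjusted p = 0.000758). Trmt44 had a log2 fold change of -0.39. Without siCtl replicate 1 neither transcript passed the test (adjusted p = 0.071 and 0.083), and without siCtl replicate 3 2610017A05Rik did not (0.0703).

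Gm37716, in an intron of the centriole gene C2cd3, had 66.0 and 97.2 in siCtl and 41.8, 51.5 and 50.8 in siUpf1 (log2 fold change -0.77, DESeq2 adjusted p = 0.0299). Gm37893, in an intron of Trmt1l, had 142.6 and 117.0 in siCtl and 80.0, 81.6 and 91.8 in siUpf1 (log2 fold change -0.62, DESeq2 adjusted p = 0.021). Gm49338, 2743 bases behind Rnf214 and antisense to the secretase gene Bace1, had 265.2 and 238.7 in siCtl and 214.3, 174.5 and 189.9 in siUpf1 (log2 fold change -0.38, DESeq2 adjusted p = 0.0489). Groups did not overlap for any of the 5, yet these last 3 calls depended on single libraries. Without siUpf1 replicate 3, DESeq2 adjusted p-values were 0.0813 for Gm37716, 0.0516 for Gm37893 and 0.156 for Gm49338, and without siCtl replicate 3 they were 0.468, 0.0642 and 0.128. Without siUpf1 replicate 2 they were 0.0604, 0.0722 and 0.183. Without siUpf1 replicate 1, Gm37716 (0.132) and Gm37893 (0.0914) did not pass, and without siCtl replicate 1, Gm37893 (0.297) and Gm49338 (0.34) did not.

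**Figure D3:**
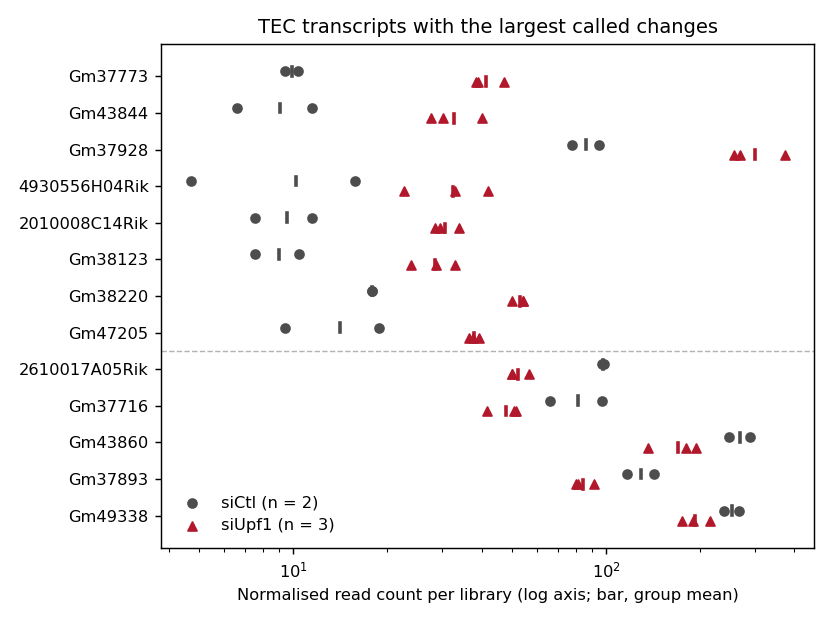
Normalised read counts (x axis, log scale) in each library for the 8 TEC transcripts with the largest called increases, above the dashed line, and the 5 called lower, below it (circles, siCtl, n = 2; triangles, siUpf1, n = 3; vertical bars, group means). In no row do the groups overlap, which was a condition of the choice, and siCtl means of the upper rows are under 20 except for Gm37928, at 86.4.

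The most abundant member was Gm49759, whose exon overlaps an exon of the pyruvate kinase gene Pkm on the same strand. It had 1744 and 1786 counts in siCtl and 1753, 1639 and 1687 in siUpf1, with overlapping groups and a log2 fold change of -0.06 (DESeq2 adjusted p = 0.503). Reads in sequence shared with Pkm cannot be assigned to either gene, so its level is uncertain. Gm42547 followed with 513.6 and 534.0 in siCtl and 514.1, 464.4 and 460.0 in siUpf1, also overlapping (log2 fold change -0.13, DESeq2 adjusted p = 0.38). Neither of these top-ranked members moved beyond the spread of its libraries.

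Of the other 8 among the 10 most abundant, 4 were called higher, 2 were called lower, and 2 did not pass the test. Gm44950 begins 494 bases behind Arpin, which encodes an inhibitor of the Arp2/3 complex. It had 119.5 and 116.0 counts in siCtl and 216.1, 207.1 and 216.6 in siUpf1 (log2 fold change 0.86, SE 0.18, DESeq2 adjusted p = 1.19e-05). Arpin had a log2 fold change of 0.35, and the ratio change of 0.50 did not pass the test of ratios described below (limma adjusted p = 0.0532). Gm37206, inside Gm21992, had 148.8 and 159.4 in siCtl and 229.5, 184.5 and 238.9 in siUpf1 (log2 fold change 0.50, DESeq2 adjusted p = 0.0144). The call of Gm44950 was kept whichever library was left out, while that of Gm37206 was lost without siCtl replicate 1 (0.162) or 3 (0.0875) and without siUpf1 replicate 1 (0.0857) or 3 (0.124). The remaining called increase, A930004J17Rik, is described with its host gene Srsf4 below.

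The median was above 0 in every position class. Of the 147 intronic members 14 were called higher (9.52%) and 2 lower (1.36%), against 22.0% and 22.9% of all genes tested. Their median log2 fold change was 0.32, and 116 of them lay above 0. Of the 37 downstream members 9 were called higher (24.3%) and 2 lower (5.41%), with a median of 0.36. Most of the 250 members had a mean of 20 to 50, where 6.54% of all genes were called higher and 6.94% lower. At 50 to 100 these shares were 11.8% and 12.8%. The classes were not compared with genes of matched level. Antisense members gave 3 higher and 1 lower of 20 (median 0.30), and the 17 members in no such position gave 5 higher and 0 lower by DESeq2 (unadjusted p under 0.05: 0 lower; edgeR: 1 lower; median 0.26). No member with a same-strand exon overlap (median 0.21) or a divergent start (median 0.40) was called by DESeq2 in either direction, whereas edgeR called 3 and 1 of them higher. Without siUpf1 replicate 3, intronic members gave 5 higher and 0 lower with a median of 0.20, and downstream members 7 higher and 1 lower with a median of 0.39. Antisense members then gave 1 higher and 1 lower, members in no such position 2 higher and 0 lower, and the exon-overlap median was 0.04.

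**Figure D4:**
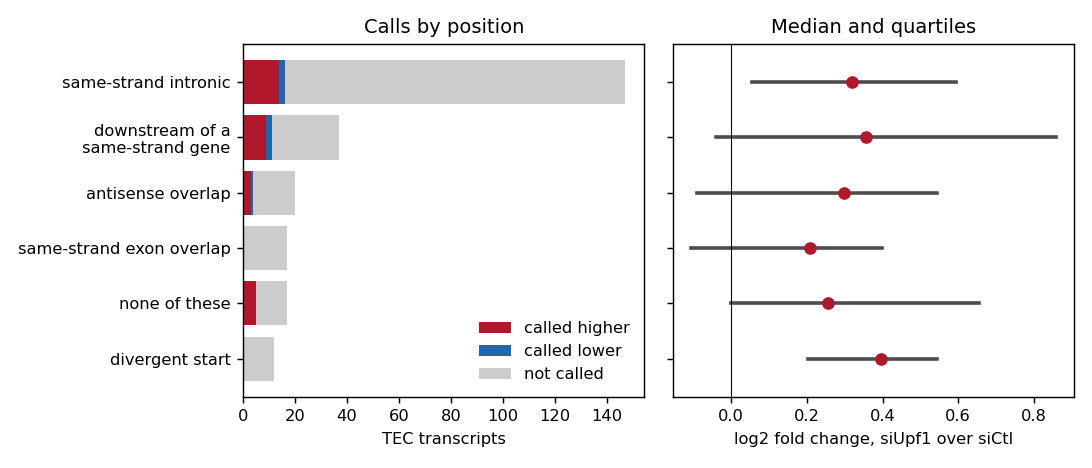
Left, TEC transcripts by position class (y axis) with the number called higher, called lower and not called (x axis, DESeq2 adjusted p under 0.05); right, median log2 fold change of siUpf1 over siCtl (dot) with quartiles (line). Medians of all 6 classes lie between 0.21 and 0.40.

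A locus inside or just behind another gene may change with that gene. Members in introns of genes called higher had a median log2 fold change of 0.42 (n = 52), those in introns of genes called lower 0.21 (n = 34) and those in introns of genes not called 0.33 (n = 59). They were called higher in 7 (13.5%), 2 (5.88%) and 5 (8.47%) cases, against 22.0% of all genes tested. Among all genes with a mean of 20 to 50, the level of most of the 250 members, 6.54% were called higher. Alternative splicing can create isoforms that NMD degrades, so host genes were also split by whether M21 annotates an NMD transcript for them. Of 70 intronic members with such a host, 7 were called higher (10.0%) and 2 lower (2.86%), with a median of 0.29. Of 77 without, 7 were called higher (9.09%) and 0 lower, with a median of 0.33.

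The change of each locus relative to its own same-strand neighbour was then tested, as the log2 ratio of their counts in each library (limma over all 460 non-coding loci with such a neighbour). Of all 460 pairs, which include the TEC pairs, 42 were called higher (9.13%) and 16 lower (3.48%), with a median ratio change of 0.11. The TEC pairs numbered 193, on 185 neighbouring genes. Of them, 16 were called higher, a share near that of all pairs, and 0 lower by limma (unadjusted p under 0.05: 37 higher and 5 lower). The median ratio change was 0.20, with 128 above 0. Without siCtl replicate 1, 8 pairs were called higher, and without siCtl replicate 3, 3 were. Without siUpf1 replicate 1 or 3, 1 pair was called lower. The median log2 fold change of these loci was 0.31 and that of their neighbours 0.05. Across pairs both fold changes correlated with Pearson's r = 0.45 and Spearman's rho = 0.38 (n = 193 pairs from the same 5 libraries). Intronic loci gave 10 calls among 143 pairs, downstream loci 6 among 35 and exon overlaps 0 among 15 (limma, unadjusted p under 0.05: 1 higher and 1 lower).

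**Figure D5:**
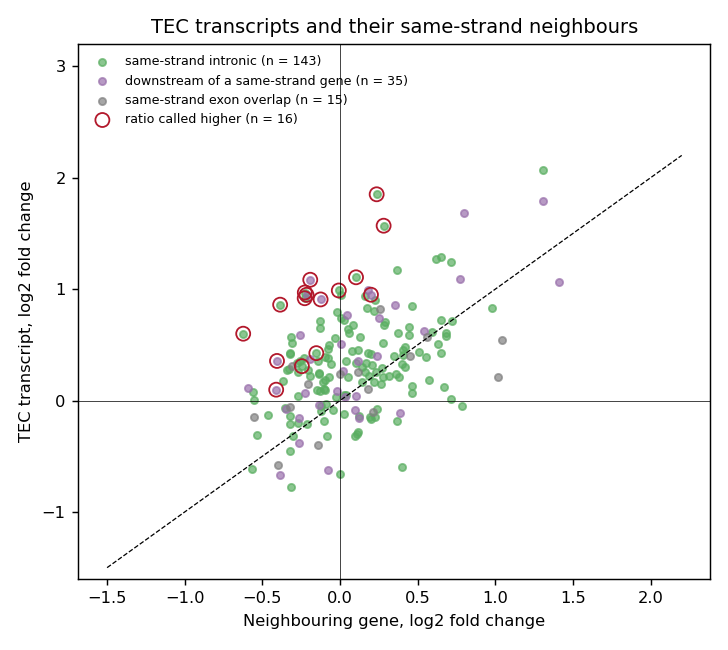
log2 fold change of each TEC transcript (y axis) against that of its same-strand neighbour (x axis) for 193 pairs, coloured by position; the dashed line marks equal change and red rings the 16 pairs whose ratio was called higher by limma. All 16 ringed points lie above the line, 14 of them where the neighbour was called lower or not called.

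For 10 of the 16 pairs called higher, the neighbour was called lower in siUpf1, for 4 it was not called and for 2, St7 and Smchd1, it was called higher. The locus itself was called higher in 9 of the 16 and did not pass the test in the other 7. The pairs outside the naming rule are given here because of their values. Gm43300 lies in an intron of Ptbp2, a neuronal splicing regulator. It had 65.0 and 56.6 counts in siCtl and 157.4, 116.7 and 116.8 in siUpf1 (log2 fold change 1.11), while Ptbp2 had 0.10, and the ratio rose by 0.99 (SE 0.19, limma adjusted p = 0.00303). Gm43679 lies in an intron of Ankib1. It had 39.8 and 44.3 in siCtl and 68.5, 75.3 and 85.6 in siUpf1 (log2 fold change 0.86) against -0.39 for Ankib1, and the ratio rose by 1.24 (SE 0.22, limma adjusted p = 0.00217). Locus and host went opposite ways here.

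The same held for 5430430B14Rik, 2767 bases behind Eif4ebp1, which encodes a repressor of cap-dependent translation. It had 34.6 and 34.9 in siCtl and 80.0, 65.3 and 74.9 in siUpf1 (log2 fold change 1.08) against -0.19 for Eif4ebp1, a ratio change of 1.26 (SE 0.23, limma adjusted p = 0.00229). A930004J17Rik, in an intron of the splicing factor gene Srsf4, had 171.9 and 157.6 in siCtl and 201.0, 237.2 and 226.4 in siUpf1 (log2 fold change 0.43, DESeq2 adjusted p = 0.0327) against -0.15 for Srsf4, and the ratio rose by 0.58 (SE 0.16, limma adjusted p = 0.0242). The DESeq2 call of A930004J17Rik was lost without either siCtl library (0.11 and 0.261) and without siUpf1 replicate 2 (0.14) or 3 (0.129).

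In another pair the neighbour fell while the locus itself did not pass the test. Gm47260, in an intron of the RNA helicase gene Ddx24, had 217.0 and 201.0 in siCtl and 231.2, 271.1 and 274.6 in siUpf1 (log2 fold change 0.31, DESeq2 adjusted p = 0.105) against -0.25 for Ddx24, and the ratio rose by 0.55 (SE 0.15, limma adjusted p = 0.0245).

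Other pairs called higher were Gm43481 with Gtf2i, Gm44667 with Mef2a, Gm45853 with Csnk2a2, Gm49284 with Atpsckmt, Gm47572 with AU041133 and Gm43279 with Uchl1. Their ratio changes were between 0.74 and 1.33. By contrast, the ratio of the members near Gm26871 to that gene did not pass this test, with a change of 0.67 for Gm37773 (limma adjusted p = 0.208) and 0.43 for Gm37928 (limma adjusted p = 0.311). Nor did that of 5330431K02Rik, in an intron of Map1b, a microtubule-associated protein gene that the study assayed by RT-qPCR in mouse cortex. It had 43.0 and 22.6 in siCtl and 56.9, 74.1 and 100.7 in siUpf1 (log2 fold change 1.25, SE 0.36, DESeq2 adjusted p = 0.00196), and Map1b had 0.71. Their ratio change of 0.54 did not pass (limma adjusted p = 0.236). Without siUpf1 replicate 3 the call of 5330431K02Rik was lost (DESeq2 adjusted p = 0.0673), as it was without siCtl replicate 3 (0.149).

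Genes of nuclear RNA decay and of cleavage and polyadenylation were set beside all genes tested, of which 22.0% were called higher and 22.9% lower. The decay list held the exosome and its nuclear adaptors, not every nuclear decay enzyme. Among all genes with a mean of 100 or more, these shares were 28.1% and 29.4%. Of 20 measured genes of nuclear RNA decay, 3 rose (Tent4a, a noncanonical poly(A) polymerase, by 0.58 log2; Zfc3h1, 0.29; Exosc5, 0.25) and 6 fell, among them the exosome subunits Exosc9 (-0.68) and Exosc3 (-0.43) and the exosome helicase Mtrex (-0.35). The median of this list was -0.02. Of 18 cleavage and polyadenylation genes, 3 rose (16.7%), led by Cpsf2 (0.51), and 6 fell (33.3%), led by Clp1 (-0.48) and Cstf1 (-0.46), with a median of -0.05. Whether the shares of these lists differ from those of all genes was not tested. Of 7 tested nuclear-retained lncRNAs, Meg3 (1.36), Kcnq1ot1 (0.74) and Rian (0.47) rose, Neat1 fell (from 3472 ± 127.7 normalised counts, SD, n = 2, to 1734 ± 263.9, SD, n = 3) and 3 did not pass the test, with a median of 0.41. The 3 measured loci that hold ribosomal RNA sequence summed to 54550 to 90990 CPM, with siUpf1 replicate 2 highest, and DESeq2 called 0 of them (0 at an unadjusted p under 0.05 and 0 by edgeR). For comparison, all 11 mRNAs that the study assayed by RT-qPCR were called higher. That assay compared Fmr1-knockout with wild-type mouse cortex or cortical cultures, not these transfected cells. The study took the 11 as NMD targets, which it had defined in part by their rise in this knockdown, so their direction here was set by that choice.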

How the data were processed

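RNA-seq of poly(A) RNA from N2A cells was analysed in 5 libraries grouped by their labels. The deposited values were raw counts per gene, not normalised: per the study's methods and processing notes, reads were mapped to GRCm38.p6 with STAR 2.7.0f and counted over exons, by strand, with featureCounts (Subread 1.6.4). Assigned reads per library were 20402205 to 27717594, so a member's 100 summed counts carry large counting error. Counts were compared with DESeq2 1.42.0 (R 4.3.3; Wald test, group as the only term, independent filtering, adjusted p under 0.05), with edgeR 4.0.16 as an alternative. Ratios of locus to neighbour used limma 3.58.1 with a pseudocount of 0.5. Fold changes are log2 of siUpf1 over siCtl with standard error (SE). With 2 libraries against 3, an exact permutation test cannot give a p-value under 0.1, so none was made. Positions and sequences came from GENCODE M21. The fits were tested on simulated data. The members and lists were chosen with earlier results of these data known. Named transcripts were the 8 largest called changes in each direction without overlap, the 10 highest levels, their neighbours, and loci in RT-qPCR genes. Alternatives covered normalisation, filter, block, libraries and membership. The pairs of 3 neighbouring genes are not reported here.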

Additional observations from a re-analysis of the deposited data

How the results depend on the processing

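The median log2 fold change of TEC transcripts stayed above 0 under every alternative run, between 0.20 with shrunken fold changes and 0.38 without siUpf1 replicate 2. Counts of calls depended more on the processing. edgeR called 61 higher and 8 lower, including all 36 main calls. With no filter on low counts 3 were called lower. Leaving out 1 library gave 12 to 27 called higher, 1 to 3 called lower, a median of 0.2143 to 0.3791, 3 to 17 pairs called higher and 0 to 1 called lower. The low ends for calls higher and for pairs came without siCtl replicate 3, which gave only 175 of the 250 members an adjusted p-value, and without siCtl replicate 1, 18 members were called higher, 1 lower and 8 pairs higher. Over all genes these fits called 2393 to 2944 higher and 2374 to 3115 lower, and Upf1 ranged from -1.1083 to -1.0814. Taking members at 50 summed counts gave 8 lower, and at 200 it gave 19 higher of 96. All 36 called members kept their sign in every fit. For named transcripts, 199 values kept their side of the threshold, 42 lost the call and 1, Gm47260 under edgeR, gained it. Replicate numbers were shared by siCtl and siUpf1 only for 1 and 3, and same-numbered libraries did not deviate together (r = -0.0608 and -0.0884 over 13437 genes). With the replicate number as a block, 4 members were called higher and 1 lower of 132 tested, 2 pairs were called higher, and 1957 and 1962 of all genes were called higher and lower. The cause of these changes was not tested beyond the fewer libraries and genes in each fit. TEC levels of 20 to 50 counts limit detection of small changes.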
